A study of Homo sapiens with 9 samples.

Results

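The genes described here encode 10 proteins of blood coagulation, its inhibitors and the dissolution of clots: the fibrinogen chains FGA, FGB and FGG, prothrombin (F2), coagulation factors V and X (F5 and F10), plasminogen (PLG), kininogen (KNG1), antithrombin (SERPINC1) and heparin cofactor II (SERPIND1). They were chosen by gene name, and all 10 were found among the 27421 genes of the deposited table, each with a value in all 9 libraries. All 10 also passed the limit for testing, which asked for at least 1 FPKM (fragments per kilobase, adjusted for library depth) in at least 3 libraries. Huh7, an established human hepatocellular carcinoma line, was profiled by poly(A) RNA sequencing in 3 groups of 3 libraries. In shzmat2-1 and shzmat2-2 the gene ZMAT2, which encodes a zinc-finger protein of the spliceosome, was targeted, and the third group was named control. The stated question was whether ZMAT2 acts on the progression of liver cancer by way of splicing, but gene-level values do not show isoforms. No label says what the control cells carried or how long ZMAT2 had been targeted. All groups come from 1 cell line, and the labels do not call the replicates separate cultures, so each p-value reflects no more than the spread of these libraries, which may be technical.

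Most plasma coagulation proteins are made and secreted by hepatocytes. Factor Xa and its cofactor, activated factor V, cut prothrombin to thrombin, which turns fibrinogen into the fibrin of the clot, while plasmin, the active form of plasminogen, dissolves it and the serpins antithrombin and heparin cofactor II inhibit thrombin. In liver, genes of this group are known targets of the transcription factors HNF1 and C/EBP, and fibrinogen transcription rises with interleukin-6 in the acute-phase response.

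Promoter sequences are shown for the fibrinogen chains, which lie side by side and form 1 protein, for PLG, the only one of the 10 genes that passed the test, and for SERPIND1, whose libraries lay above the control in both arms. Each is the 250 bases upstream of the gene's RefSeq start on GRCh38.p14, written 5′ to 3′ on the gene's own strand. The regions are chr4:154590743-154590992 on the minus strand (FGA), chr4:154562730-154562979 on the plus strand (FGB), chr4:154612657-154612906 on the minus strand (FGG), chr6:160701943-160702192 on the plus strand (PLG) and chr22:20773863-20774112 on the plus strand (SERPIND1). Capitals mark matches, on either strand, to 3 motifs: CTGGGAA (interleukin-6 response element), GTTAAT (HNF1 half-site) and TTGCNNAA (C/EBP).
FGA: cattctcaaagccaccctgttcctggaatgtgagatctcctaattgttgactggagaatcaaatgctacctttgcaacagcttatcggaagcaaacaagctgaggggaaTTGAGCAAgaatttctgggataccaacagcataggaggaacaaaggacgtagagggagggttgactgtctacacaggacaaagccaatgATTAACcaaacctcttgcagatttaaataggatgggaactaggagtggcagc
FGB: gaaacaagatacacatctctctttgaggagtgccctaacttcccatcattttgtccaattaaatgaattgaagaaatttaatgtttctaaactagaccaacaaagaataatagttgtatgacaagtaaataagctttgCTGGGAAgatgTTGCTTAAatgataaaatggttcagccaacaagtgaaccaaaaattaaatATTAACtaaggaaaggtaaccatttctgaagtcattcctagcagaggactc
FGG: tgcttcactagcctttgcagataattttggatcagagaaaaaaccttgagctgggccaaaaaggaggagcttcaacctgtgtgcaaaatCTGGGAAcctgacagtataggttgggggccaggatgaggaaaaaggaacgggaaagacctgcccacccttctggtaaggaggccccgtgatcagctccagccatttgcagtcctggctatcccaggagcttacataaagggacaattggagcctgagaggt
PLG: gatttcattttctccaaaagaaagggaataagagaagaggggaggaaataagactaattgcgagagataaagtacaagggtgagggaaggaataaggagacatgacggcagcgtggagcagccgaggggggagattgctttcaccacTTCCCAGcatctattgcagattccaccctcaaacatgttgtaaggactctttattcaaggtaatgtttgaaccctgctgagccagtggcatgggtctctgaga
SERPIND1: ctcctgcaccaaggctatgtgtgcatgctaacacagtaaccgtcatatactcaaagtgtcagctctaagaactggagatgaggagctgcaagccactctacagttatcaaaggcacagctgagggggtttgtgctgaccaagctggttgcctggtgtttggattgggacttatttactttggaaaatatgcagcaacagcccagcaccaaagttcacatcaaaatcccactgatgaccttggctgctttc
RefSeq promoters matched 9 of the 10 genes by symbol, all except SERPINC1. CTGGGAA occurred in 4 of the 9, starting 112 bases upstream of the RefSeq start in FGB, 161 in FGG, 107 in F10 and 103 in PLG, the last pair on the opposite strand. Gene starts in the deposited table, whose build is not given, can differ from these. The FGG window falls within the FGG coordinates given there (154604134 to 154612967). The same letters occurred in 9.15% of 35116 promoters of this length. GTTAAT occurred in 3 of the 9, 52 bases upstream in FGA, 51 in FGB and 34 in F2, against 6.23% of all promoters. TTGCNNAA occurred in 3 of the 9, in FGA, FGB and KNG1, against 9.05% of all promoters. FGB held all 3 motifs within 112 bases of its start, whereas the windows of SERPIND1 and F5 held none of them. None of the matches overlapped another, and a match of letters is a description, not a measured site.

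The libraries held 18430000 to 23740000 fragments, recovered from the FPKM, so that 3 fragments on a transcript of 1 kb equal 0.126 to 0.163 FPKM. ZMAT2 itself had 13.7 ± 1.30 FPKM in shzmat2-1, 21.1 ± 0.922 in shzmat2-2 and 36.5 ± 3.32 in control (SD, n = 3 each), with no overlap between either arm and the control. The fitted log2 fold change passed at -1.35 in shzmat2-1 (adjusted p = 0.028 by limma) and missed the threshold at -0.76 in shzmat2-2 (adjusted p = 0.11 by limma). Control replicate 2 stood apart: the 13 mitochondrially encoded genes took 43.2% of its fragments, against 7.86% and 8.28% in the other control libraries. The same share was 8.25%, 16.4% and 7.70% in shzmat2-1 replicates 1, 2 and 3, and 27.0%, 14.5% and 16.6% in shzmat2-2. The label of liver cells held at the level of markers: all 12 hepatocyte markers reached 1 FPKM, with ALB at 2383 ± 312 FPKM in shzmat2-1, 1908 ± 153 in shzmat2-2 and 2024 ± 599 in control (SD, n = 3 each). The summed level of the 12 was 5373 to 7966 FPKM in shzmat2-1, 4326 to 5850 in shzmat2-2 and 3478 to 7633 in control. Endothelial, fibroblast and megakaryocyte markers summed to at most 4.18 FPKM per list in any library, and leukocyte markers to 47.6 to 136 FPKM. The markers CDH5, TEK, VWF and ERG (endothelium), PTPRC and CD3E (leukocytes), DCN (fibroblasts) and ITGA2B (platelets) stayed under 0.1 FPKM throughout. They were named for that level, and other markers of these lists were higher. PECAM1 (endothelium), CD14 and LYZ (leukocytes) and COL1A2 and PDGFRB (fibroblasts) each reached 1 FPKM in some libraries, and no megakaryocyte marker did. In bulk RNA of this kind, fewer cells of a type and less RNA per cell cannot be told apart.

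The 10 genes differed widely in level. FGB stood at rank 48 of 27421 genes by mean control FPKM, FGA at 69, FGG at 155, SERPIND1 at 246 and F2 at 253. SERPINC1, F5, KNG1 and F10 followed at ranks 1201, 1245, 1556 and 2187, and PLG was far lower at 6598. Since FPKM is per length, these levels can be set against each other. In the control libraries only 2 of the 9 neighbours in this order did not overlap, F2 above SERPINC1 and F10 above PLG. In shzmat2-2 the order differed at SERPIND1, whose libraries (160.3 to 179 FPKM) all lay above those of FGG (111 to 131 FPKM). SERPIND1 and FGG overlapped in shzmat2-1, at 127 to 155 FPKM for SERPIND1 and 135 to 182 for FGG, and in control, at 94.4 to 102 and 94.3 to 178 FPKM. F5 also stood elsewhere in shzmat2-2, with its libraries (21.2 to 33.5 FPKM) all above those of KNG1 (18.1 to 19.9) and SERPINC1 (15.8 to 20.9). In shzmat2-1 F5 came after F10 and KNG1 by mean FPKM, but its libraries overlapped those of KNG1.

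**Figure D1:**
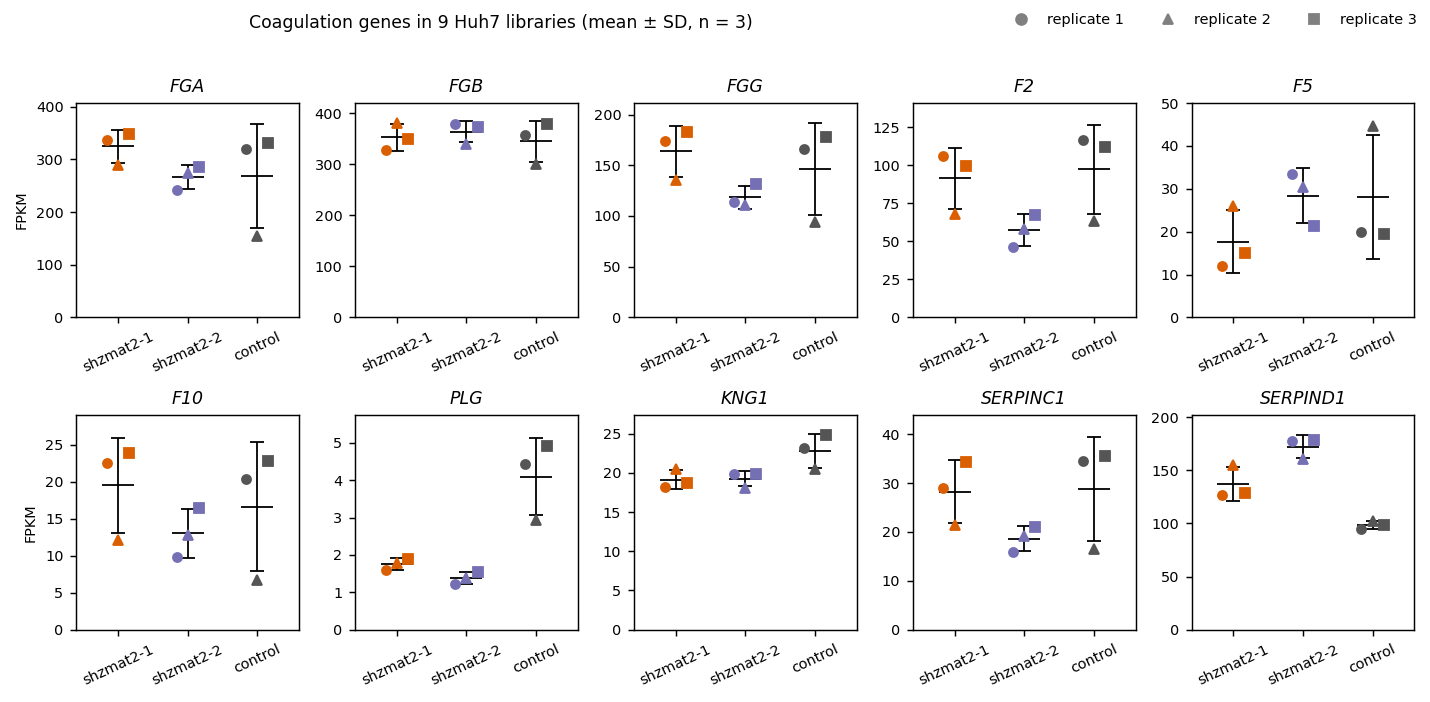
FPKM (vertical axes, from 0) of each of the 10 genes in the libraries of shzmat2-1, shzmat2-2 and control, with the shape of a point giving the replicate number and bars the mean ± SD (n = 3). PLG and KNG1 lie below all control libraries in both arms and SERPIND1 above them, while the triangle of control replicate 2 lies far from the other control points in FGA, FGG, F2, F5, F10 and SERPINC1.

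The first comparison asked which of the 10 genes differed between each ZMAT2 arm and the control. One of them, PLG, passed the test: it fell in shzmat2-2 and in the mean of both arms, to 33.8% of the control mean in shzmat2-2. None of the fibrinogen chains, the clotting factors and SERPINC1 passed, and the libraries of each arm overlapped the control for all 7 of these genes. SERPIND1 was higher and KNG1 lower than every control library in both arms, but neither passed the test across all genes. By limma's test on log2(FPKM + 1), with Benjamini-Hochberg adjustment over 11245 genes and a threshold of 0.05, 0 of the 10 genes were called in shzmat2-1, against 0.08% of all genes tested (0.0622% higher and 0.0178% lower). In shzmat2-2 it was 1 of 10, against 0.587%, and in the mean of both arms 1 of 10, against 0.542%. At an unadjusted p under 0.05 the counts were 2 of 10 in shzmat2-1 (5.76% of all genes), 3 of 10 in shzmat2-2 (7.0%) and 2 of 10 in the mean of both arms (6.93%). Same-numbered libraries of shzmat2-1 and control deviated together, and with the replicate number as a block in a fit of these 2 groups 1 of 10 was called in shzmat2-1, PLG, against 2.13% of all genes. Replicate 2 had the highest mitochondrial share in both of these groups, and its part in this pairing was not tested. Libraries did not overlap the control for 3 of 10 genes in shzmat2-1, against 10.9% of all genes, with 1 higher (9.1% of all genes) and 2 lower (1.83%). In shzmat2-2 it was 3 of 10, against 13.4%, with 1 higher (11.9%) and 2 lower (1.52%). For the 6 libraries of both arms against the control it was again 3 of 10, against 5.37%, with 1 higher (4.69% of all genes) and 2 lower (0.685%). The median log2 fold change of the 10 genes was 0.03 in shzmat2-1 and -0.21 in shzmat2-2, beside 0.16 and 0.05 over all genes tested. Both arms are set against the same control libraries, so their fold changes are not independent.

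**Figure D2:**
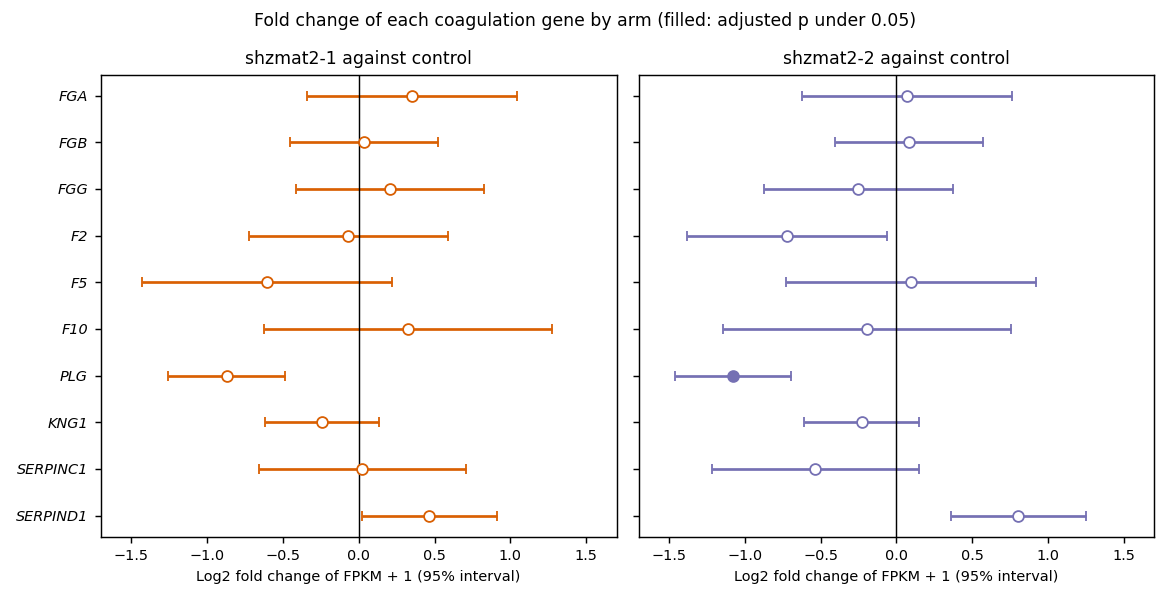
Log2 fold change of FPKM + 1 (horizontal axes) with its 95% interval for the 10 genes, shzmat2-1 against control on the left and shzmat2-2 against control on the right, filled where the limma adjusted p was under 0.05. Only PLG in shzmat2-2 is filled, at -1.08, and the widest intervals are those of F10 and F5.

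Fibrinogen is secreted as a protein with paired Aα, Bβ and γ chains, each from its own gene. In the deposited table the 3 genes lie within 49957 bases of chromosome 4 (154563011 to 154612967), with no other gene of the table between them. FGB (ENSG00000171564, 154563011 to 154572807) is on the plus strand, and FGA (ENSG00000171560, 154583126 to 154590742) and FGG (ENSG00000171557, 154604134 to 154612967) are on the minus strand. Their abundance differed in how much it varied: FGB was the steadiest of the 3 and FGA and FGG both had their lowest level in control replicate 2.

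FGA, the Aα chain, had 338, 289 and 348 FPKM in shzmat2-1 replicates 1, 2 and 3, 241, 274 and 286 in shzmat2-2, and 320.1, 154 and 330.4 in control. Control replicate 2 was the lowest of the 9 libraries, so that the control range took in all of shzmat2-2 and 1 library of shzmat2-1. Relative to control, the log2 fold change was 0.35 in shzmat2-1 (95% interval -0.34 to 1.04, adjusted p = 0.81 by limma) and 0.07 in shzmat2-2 (-0.62 to 0.76, adjusted p = 1.0 by limma). Without control replicate 2 the estimate in shzmat2-2 was -0.29 (adjusted p = 0.26 by limma).

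FGB, the Bβ chain, had 328, 379.96 and 349.9 FPKM in shzmat2-1, 379.3, 340.1 and 373 in shzmat2-2, and 357, 300.01 and 378 in control. Control replicate 2 was again the lowest library, by a smaller margin than for FGA, and the 3 groups overlapped. The log2 fold changes of 0.04 in shzmat2-1 and 0.08 in shzmat2-2 (adjusted p = 0.96 and 1.0 by limma) were a fraction of their standard error of 0.22. For the mean of both arms the 95% interval was -0.37 to 0.48.

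FGG, the γ chain, had 174, 135 and 182 FPKM in shzmat2-1, 114, 111 and 131 in shzmat2-2, and 166, 94.3 and 178 in control. All shzmat2-2 libraries lay between control replicate 2 and the other control libraries. FGG had a log2 fold change of 0.21 in shzmat2-1 (-0.42 to 0.83, adjusted p = 0.81 by limma) and -0.25 in shzmat2-2 (-0.87 to 0.37, adjusted p = 1.0 by limma). Without control replicate 2 it was -0.08 in shzmat2-1 and -0.54 in shzmat2-2 (adjusted p = 0.98 and 0.11 by limma).

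The balance of the chains within a library does not depend on the library's scaling. FGB to FGA was 0.971, 1.31 and 1.005 in shzmat2-1, 1.57, 1.24 and 1.31 in shzmat2-2, and 1.12, 1.95 and 1.14 in control. The highest ratio was that of control replicate 2, the shzmat2-2 libraries all lay above the other control libraries, and those of shzmat2-1 lay on both sides of them. FGG to FGA was 0.515, 0.467 and 0.524 in shzmat2-1, 0.471, 0.404 and 0.459 in shzmat2-2, and 0.519, 0.612 and 0.538 in control. Of the 6 libraries of the arms, 5 lay below all control libraries in this ratio, the exception being shzmat2-1 replicate 3. On the log2 scale the mean FGG to FGA ratio was -1.08 ± 0.13 in both arms (SD, n = 6) and -0.85 ± 0.12 in control (SD, n = 3), a difference of -0.23. A two-sided exact permutation test over 84 assignments of the libraries gave p = 0.0595, or 0.119 after Benjamini-Hochberg adjustment over the 2 ratios. The exact p was 0.0179 without shzmat2-1 replicate 3, 0.0357 without control replicate 1 and 0.179 without control replicate 2. Leaving out either of the first 2 removed the only overlap (0.524 against 0.519), so each p was the smallest its test could give. For FGB to FGA the difference was -0.15 (exact permutation p = 0.536), and it was 0.11 without control replicate 2.

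**Figure D3:**
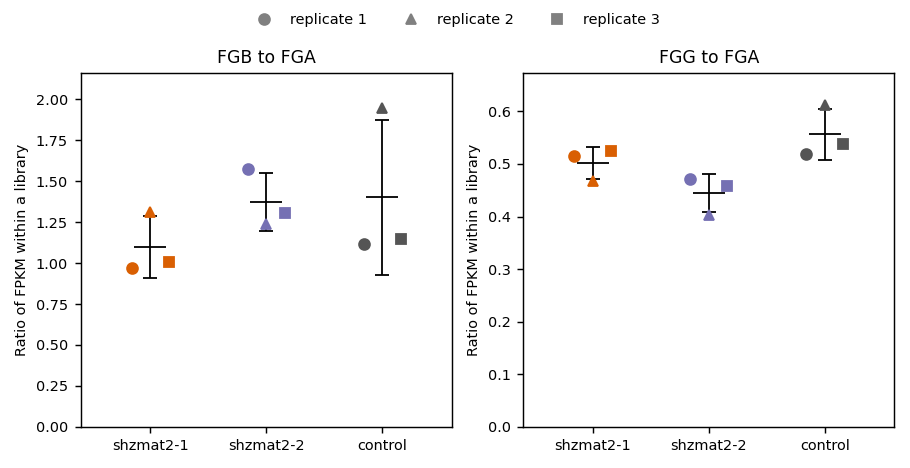
Ratio of FPKM within each library (vertical axes, from 0), FGB to FGA on the left and FGG to FGA on the right, for shzmat2-1, shzmat2-2 and control, with points shaped by replicate number and bars at mean ± SD (n = 3). FGG to FGA lies at 0.404 to 0.471 in shzmat2-2, below the control libraries at 0.519 to 0.612.

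The 3 clotting factors were expressed at very different levels, with F2 the most abundant. None of them passed the test, and in each the difference between control replicate 2 and the other controls exceeded the difference between group means.

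F2 (ENSG00000180210, chromosome 11, 46719196 to 46739506, plus strand) encodes prothrombin, the precursor of thrombin. It had 106, 68.2 and 99.8 FPKM in shzmat2-1, 46.5, 58.1 and 67.3 in shzmat2-2, and 116, 63.6 and 112 in control. The shzmat2-2 libraries held the 2 lowest values of all, but the third lay above control replicate 2. For F2 the fitted log2 fold change was -0.07 in shzmat2-1 (-0.73 to 0.59, adjusted p = 0.93 by limma) and -0.72 in shzmat2-2 (-1.38 to -0.06, unadjusted p = 0.035, adjusted p = 0.65 by limma). With the mitochondrial level as a covariate the estimate in shzmat2-2 was -0.58 and passed (adjusted p = 0.011 by limma). It also passed with scaling to nuclear genes (-0.71, adjusted p = 0.026 by limma) and with quantile normalization (-0.74, adjusted p = 0.016 by limma), and without control replicate 2 it was -0.999 (adjusted p = 0.057 by limma). Those fits called more of all genes too: 9.84% with the covariate, 1.47% with nuclear scaling and 1.76% with quantile normalization.

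F5 (ENSG00000198734, chromosome 1, 169511951 to 169586588, minus strand) encodes factor V, the cofactor of factor Xa. It had 12.01, 26.04 and 14.9 FPKM in shzmat2-1, 33.5, 30.5 and 21.2 in shzmat2-2, and 20.02, 44.7 and 19.6 in control. Unlike the fibrinogen chains, F5 was higher in control replicate 2 than in any other library, and shzmat2-1 replicate 2 was the highest of its group. F5 had log2 fold changes of -0.61 in shzmat2-1 (-1.43 to 0.22, adjusted p = 0.81 by limma) and 0.10 in shzmat2-2 (-0.73 to 0.92, adjusted p = 1.0 by limma). Without control replicate 2 the estimates were -0.23 and 0.47 (adjusted p = 0.96 and 0.30 by limma).

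F10 (ENSG00000126218, chromosome 13, 113122799 to 113149529, plus strand) encodes factor X, the enzyme that cuts prothrombin. It had 22.5, 12.2 and 23.9 FPKM in shzmat2-1, 9.84, 12.8 and 16.5 in shzmat2-2, and 20.4, 6.68 and 22.8 in control. Control replicate 2 was the lowest of all libraries, and both arms overlapped the control range. F10 had log2 fold changes of 0.33 in shzmat2-1 (-0.63 to 1.28, adjusted p = 0.81 by limma) and -0.19 in shzmat2-2 (-1.15 to 0.76, adjusted p = 1.0 by limma). Without control replicate 2 the estimates were -0.19 and -0.71 (adjusted p = 0.97 and 0.15 by limma). F10 overlaps 2 genes on the opposite strand, F10-AS1 and ENSG00000283828, which had at most 0.524 and 0.790 FPKM, and the sources used here do not state whether reads were assigned by strand.

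PLG (ENSG00000122194, chromosome 6, 160702194 to 160754097, plus strand) encodes plasminogen, the zymogen of plasmin. It had 1.59, 1.79 and 1.89 FPKM in shzmat2-1, 1.23, 1.38 and 1.55 in shzmat2-2, and 4.44, 2.94 and 4.91 in control. All 6 libraries of the arms lay below all 3 control libraries, including control replicate 2. The means were 1.75 ± 0.156 FPKM in shzmat2-1, 1.39 ± 0.162 in shzmat2-2 and 4.10 ± 1.03 in control (SD, n = 3 each), so the arms stood at 42.8% and 33.8% of the control mean. In log2 units PLG differed from control by -0.87 in shzmat2-1 (-1.25 to -0.48, adjusted p = 0.13 by limma), -1.08 in shzmat2-2 (-1.46 to -0.69, adjusted p = 0.025 by limma) and -0.97 in the mean of both arms (-1.31 to -0.64, adjusted p = 0.020 by limma). PLG was thus called lower in shzmat2-2 and in the mean of the arms, while in shzmat2-1 it missed the threshold without the replicate block and passed with it (-0.87, -1.30 to -0.44, adjusted p = 0.0086 by limma). The blocked fit leaves 2 residual degrees of freedom, and limma took the spread of each gene wholly from the trend over all genes. Its pairing was read from the data, and replicate 2 had the highest mitochondrial share in both blocked groups. Over the 9 fits that each left out 1 library, the mean of both arms gave -1.15 to -0.86. The call held without control replicate 2 (adjusted p = 0.0042 by limma), where 1.28% of all genes were called. It was lost when any 1 of the other 8 libraries was left out (adjusted p = 0.054 to 0.13 by limma). Those 8 fits called 0% to 0.385% of all genes, against 0.542% with all 9 libraries. The call was also lost without the filter on low values (adjusted p = 0.059 by limma) and with TPM (adjusted p = 1.0 by limma), and PLG was not tested with a filter of 5 FPKM.

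The depth behind these values was about 180 to 600 fragments per library on the exons annotated for PLG. Related genes share sequence with PLG: LPA, PLGLB1 and PLGLB2 had at most 0.0071, 0.188 and 0.0835 FPKM, and the sources used here do not state how shared reads were assigned. A gene overlapping PLG on the opposite strand, ENSG00000287558, had at most 0.0604 FPKM. LYZ, a lysozyme gene listed as a leukocyte marker, was also lower in the arms than in 2 of the 3 controls, at 66.5 ± 4.42 FPKM in shzmat2-1, 51.2 ± 8.17 in shzmat2-2 and 104 ± 42.7 in control (SD, n = 3 each, adjusted p = 0.57 by limma for the mean of the arms). The 6 leukocyte markers summed to 66.3 to 77.9 FPKM in shzmat2-1, 47.6 to 65.7 in shzmat2-2 and 56.9 to 136 in control, nearly all from LYZ and CD14, while PTPRC, which marks leukocytes as a class, had at most 0.0236 FPKM.

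KNG1 (ENSG00000113889, chromosome 3, 186717348 to 186744410, plus strand) encodes kininogen, the source of bradykinin and a cofactor of contact activation. It had 18.2, 20.5 and 18.8 FPKM in shzmat2-1, 19.9, 18.1 and 19.8 in shzmat2-2, and 23.2, 20.5 and 24.8 in control. All libraries of the arms lay below the control libraries, but the highest of them, at 20.47 FPKM, was next to control replicate 2 at 20.52. The log2 fold changes of -0.24 in shzmat2-1 (-0.62 to 0.13) and -0.23 in shzmat2-2 (-0.61 to 0.15) did not pass (adjusted p = 0.81 and 1.0 by limma). The means were 19.1 ± 1.19 FPKM in shzmat2-1, 19.3 ± 1.02 in shzmat2-2 and 22.8 ± 2.18 in control (SD, n = 3 each). HRG-AS1, which overlaps KNG1 on the opposite strand, had at most 0.101 FPKM.

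The serpins differed from each other: SERPIND1 lay above the control in both arms, whereas SERPINC1 followed the pattern of F2 and F10 with its lowest values in control replicate 2 and in shzmat2-2. SERPINC1 (ENSG00000117601, chromosome 1, 173903800 to 173917327, minus strand) encodes antithrombin, which inhibits thrombin and factor Xa. It had 29.03, 21.4 and 34.2 FPKM in shzmat2-1, 15.8, 19.1 and 20.9 in shzmat2-2, and 34.4, 16.4 and 35.5 in control. Both arms overlapped the control, through control replicate 2. SERPINC1 had log2 fold changes of 0.02 in shzmat2-1 (-0.66 to 0.71, adjusted p = 0.98 by limma) and -0.54 in shzmat2-2 (-1.22 to 0.15, adjusted p = 0.91 by limma). Without control replicate 2 the estimates were -0.32 and -0.88 (adjusted p = 0.78 and 0.061 by limma), and with the mitochondrial covariate the estimate in shzmat2-2 was -0.38 and passed (adjusted p = 0.041 by limma).

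SERPIND1 (ENSG00000099937, chromosome 22, 20774113 to 20787720, plus strand) encodes heparin cofactor II, which inhibits thrombin in the presence of heparin or dermatan sulfate. It had 127, 155 and 128 FPKM in shzmat2-1, 178, 160.3 and 179 in shzmat2-2, and 94.4, 102 and 98.5 in control. All 6 libraries of the arms were higher than all 3 control libraries, and here control replicate 2 did not stand apart. The means were 137 ± 16.04 FPKM in shzmat2-1, 172 ± 10.5 in shzmat2-2 and 98.4 ± 3.89 in control (SD, n = 3 each), or 139% and 175% of the control mean. SERPIND1 had log2 fold changes of 0.47 in shzmat2-1 (0.02 to 0.91, adjusted p = 0.81 by limma), 0.80 in shzmat2-2 (0.36 to 1.25, adjusted p = 0.17 by limma) and 0.63 in the mean of both arms (0.25 to 1.02, adjusted p = 0.23 by limma), so none passed. It passed in shzmat2-2 without control replicate 2 (0.83, adjusted p = 0.034 by limma), and with the mitochondrial covariate in shzmat2-2 (0.77, adjusted p = 0.0011 by limma) and in the mean of both arms (0.64, adjusted p = 0.0012 by limma). The share of all genes called was 2.35% in shzmat2-2 without control replicate 2, and 9.84% in shzmat2-2 and 9.75% in the mean with the covariate. Over all alternatives SERPIND1 was called in 1 of 22 fits of shzmat2-1, 3 of 21 of shzmat2-2 and 2 of 20 of the mean. SERPIND1 lies inside PI4KA, a lipid kinase gene on the opposite strand. PI4KA had 16.3 ± 0.522 FPKM in shzmat2-1, 16.9 ± 2.53 in shzmat2-2 and 16.5 ± 5.62 in control (SD, n = 3 each), a log2 fold change of 0.06 for the mean of both arms (adjusted p = 1.0 by limma).

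Levels of the 10 genes were also read against the mitochondrial share of the libraries within the groups. In each group the library with the highest share was set against the other 2 of its group. It was lower in all 3 groups for F10, F2, FGA, FGG and SERPINC1, and higher in all 3 for F5 and SERPIND1. For F10 the log2 difference was -0.88 in shzmat2-1, -0.52 in shzmat2-2 and -1.56 in control, the last being the largest in size among the 10 genes. For F5 it was 0.91 in shzmat2-1, 0.39 in shzmat2-2 and 1.14 in control. Since a larger mitochondrial share leaves fewer fragments for all other genes, the values were also taken per nuclear fragment. On that scale F10, F2, FGA and SERPINC1 were still lower in all 3 groups, with a log2 difference of -0.94 for F10 in control, and F5, FGB, KNG1 and SERPIND1 were higher in all 3. PLG was mixed on both scales, and its difference in control was -0.52 per fragment and 0.02 per nuclear fragment. These are single libraries without a test. The same pattern was not counted over all genes, so these counts do not show anything particular to the 10. The part of the mitochondrial share in the group differences was examined only with the covariate and with scaling to nuclear genes.

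**Figure D4:**
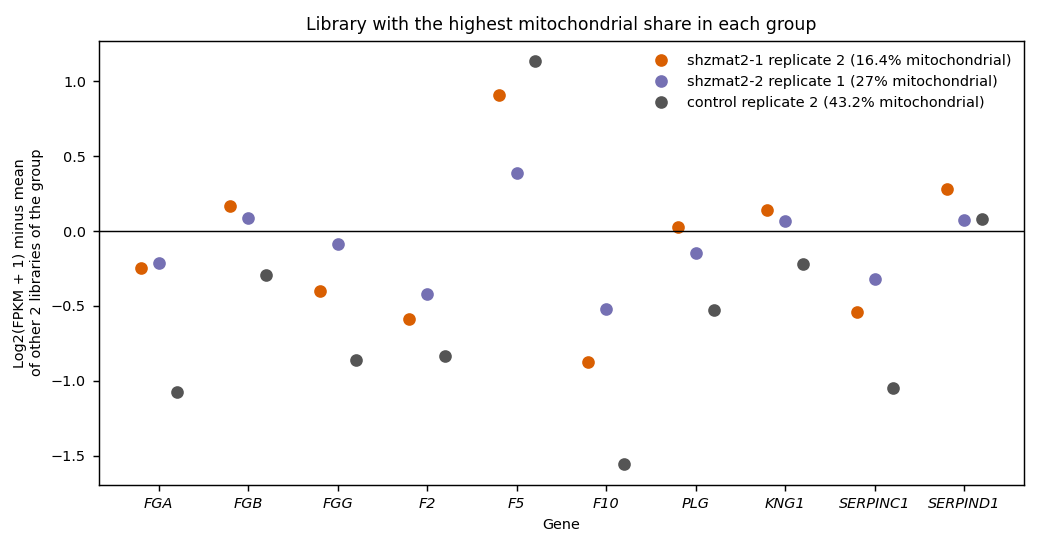
Log2(FPKM + 1) of the library with the highest mitochondrial share in each group minus the mean of the other 2 libraries of that group (vertical axis), for the 10 genes, with 1 point each for shzmat2-1 replicate 2, shzmat2-2 replicate 1 and control replicate 2. Points for F10, F2, FGA, FGG and SERPINC1 all lie below 0 and those for F5 above 0, and the control point is the farthest from 0 in each of these 6 genes.

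The arms were also compared with each other. In shzmat2-2 against shzmat2-1, 0 of the 10 genes were called by limma, against 0% of the 11245 genes tested, and at an unadjusted p under 0.05 there were 0 of the 10 and 465 of all genes (4.14%). The libraries of the 2 arms did not overlap for 6 of the 10 genes, against 14.9% of all genes. SERPIND1 was higher in shzmat2-2, as were 5.59% of all genes, and FGA, FGG, F2, PLG and SERPINC1 were lower, as were 9.28%, some by narrow gaps: the highest F2 library of shzmat2-2 had 67.3 FPKM and the lowest of shzmat2-1 had 68.2. The mitochondrial share was 14.5% to 27.0% in shzmat2-2 and 7.70% to 16.4% in shzmat2-1, and its part in these differences was not tested.

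The 5 lists of further coagulation genes covered clotting factors, inhibitors, fibrinolysis, the vitamin K cycle with factor transport, and receptors for thrombin and related proteases. Of their 42 genes, 39 had a row and 31 were tested. In the mean of both arms 1 of the 31 was called higher and 0 lower, against 0.454% and 0.0889% of all genes, and their median log2 fold change was 0.03, against 0.10 over all genes. In shzmat2-1 it was 0 of 31 (0.08% of all genes), and in shzmat2-2 it was 2 of 31, both higher (0.507% of all genes). With the replicate block 3 were called in shzmat2-1, F12, SERPINA5 and PLAU, against 2.13% of all genes. Not all of the 31 reached the limit for testing in that fit. Libraries of both arms lay outside the control range for 2 of the 31, SERPINE2 and F2RL1, both above it, against 5.37% of all genes (4.69% above), a share near that background. F2RL1 and PLAU reached 1 FPKM only in libraries of the arms, so the limit for testing itself favoured higher estimates for both.

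SERPINE2, protease nexin 1, is a serpin that, like antithrombin and heparin cofactor II, inhibits thrombin. It had 7.52, 7.62 and 7.41 FPKM in shzmat2-1, 10.9, 11.7 and 11.2 in shzmat2-2, and 5.25, 4.23 and 5.49 in control. The 3 groups did not overlap, with shzmat2-2 the highest. SERPINE2 had log2 fold changes of 0.51 in shzmat2-1 (adjusted p = 0.47 by limma), 1.04 in shzmat2-2 (adjusted p = 0.020 by limma) and 0.78 in the mean of both arms (adjusted p = 0.039 by limma). Leaving out 1 library at a time kept the last of these between 0.68 and 0.84, but the call held only without control replicate 2 (adjusted p = 0.016 by limma) and not without any of the other 8 libraries (adjusted p = 0.077 to 0.18 by limma). Those 8 fits called 0% to 0.385% of all genes, and the fit without control replicate 2 called 1.28%.

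F2RL1 encodes a protease-activated receptor cut by trypsin-like enzymes, among them the tissue factor complexes with factors VIIa and Xa. It had 1.04, 0.671 and 1.14 FPKM in shzmat2-1, 1.40, 1.62 and 1.32 in shzmat2-2, and 0.318, 0.269 and 0.603 in control. Both arms lay above the control libraries, and all 9 values lay above 3 fragments on 1 kb. It rose in shzmat2-2, with a log2 fold change of 0.81 (adjusted p = 0.040 by limma). No control library reached 1 FPKM, so F2RL1 met the limit for testing only through the arms. A call in the lower direction was thus hardly open to it. The call was lost without any 1 library other than control replicate 2 or shzmat2-1 replicate 2 (adjusted p = 0.081 to 0.25 by limma). The fits that lost it called 0% to 0.251% of all genes. For F2R, the main thrombin receptor, the log2 fold change of the mean of both arms was -0.07 (adjusted p = 1.0 by limma).

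Apart from SERPINE2, none of the 31 further coagulation genes tested passed in the mean of both arms. A2M, a broad protease inhibitor, averaged 163 ± 8.06 FPKM in shzmat2-1, 118 ± 18.6 in shzmat2-2 and 241 ± 73.2 in control (SD, n = 3 each). Without control replicate 2 its log2 fold change for the mean of both arms was -1.03 (adjusted p = 0.019 by limma), where 1.28% of all genes were called. With all 9 libraries it was -0.75 (adjusted p = 0.36 by limma). For PLAU, the urokinase that activates plasminogen, it was 0.58 (adjusted p = 0.40 by limma), with 2.38 ± 0.806 FPKM in shzmat2-1, 0.741 ± 0.269 in shzmat2-2 and 0.620 ± 0.307 in control (SD, n = 3 each). F11, factor XI of the contact pathway, had 1.66 ± 0.571 FPKM in shzmat2-1, 2.66 ± 0.227 in shzmat2-2 and 1.11 ± 0.259 in control (SD, n = 3 each, log2 fold change 0.56, adjusted p = 0.23 by limma). In the list of the vitamin K cycle and factor transport, none of the 7 tested genes was called, and the smallest adjusted p was that of VKORC1L1 (log2 fold change 0.28, adjusted p = 0.97 by limma). F9, named after its values were seen, had at most 0.0127 FPKM in any library.

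**Figure D5:**
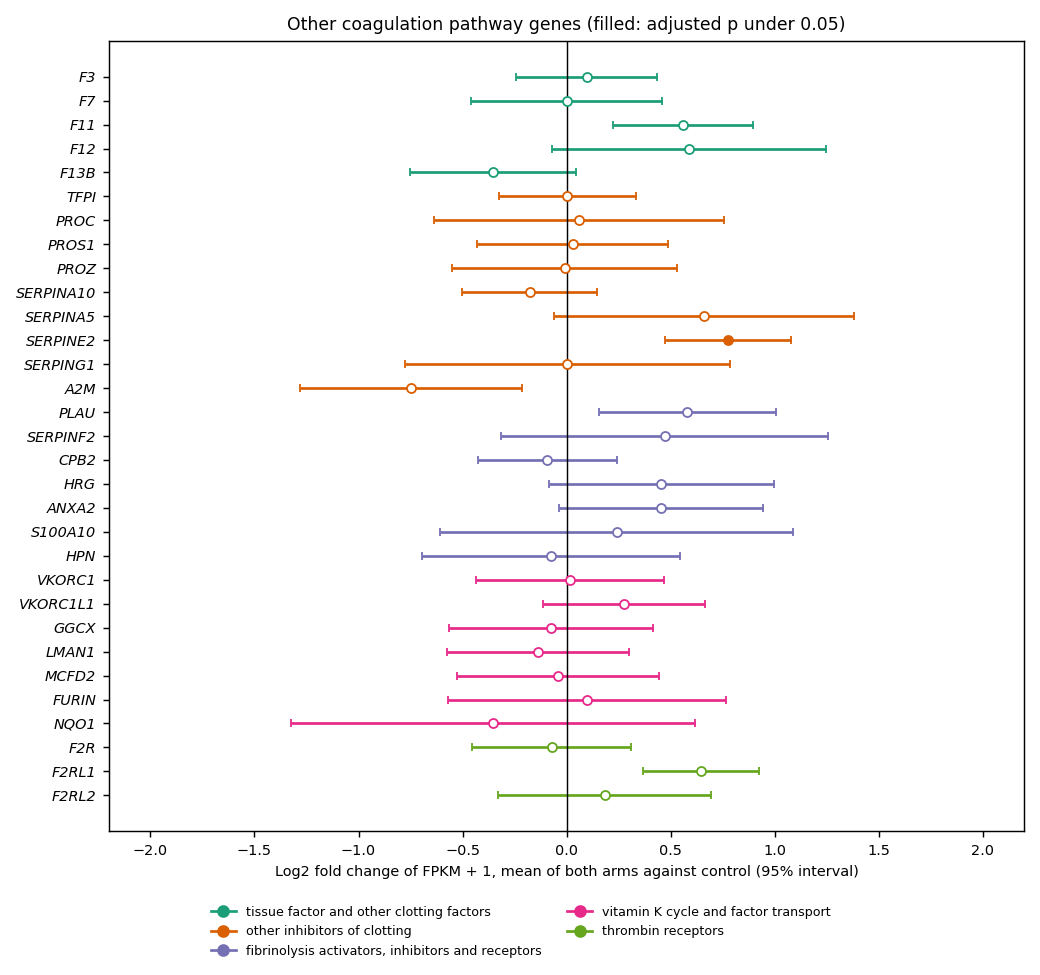
Log2 fold change of FPKM + 1 for the mean of both arms against control with its 95% interval (horizontal axis) for the 31 tested coagulation genes outside the 10, coloured by list and filled where the limma adjusted p was under 0.05. SERPINE2 at 0.78 is the only filled point, and A2M at -0.75 has the lowest estimate.

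The regulators known for fibrinogen and its neighbours were read from 2 more lists. Of 12 genes of interleukin-6 signalling and the acute phase, 7 were tested and none was called, at a median log2 fold change of 0.23 in the mean of both arms. At an unadjusted p under 0.05 there were 4 of the 7, HP, HAMP and IL6R with lower estimates and ORM1 with a higher one, against 6.93% of all genes. By its means HAMP was lower only in shzmat2-2, at 1.40 ± 0.225 FPKM, against 4.94 ± 1.69 in shzmat2-1 and 4.62 ± 1.56 in control (SD, n = 3 each). HP, haptoglobin, had 2.11 ± 0.700 FPKM in shzmat2-1, 1.26 ± 0.0610 in shzmat2-2 and 3.59 ± 1.69 in control (SD, n = 3 each, log2 fold change -0.72, adjusted p = 0.46 by limma). It passed without control replicate 2 (-1.08, adjusted p = 0.020 by limma), in a fit that called 1.28% of all genes. ORM1, an acute-phase glycoprotein gene with a near-identical copy that could share its reads, had 192 ± 18.7 FPKM in shzmat2-1, 219 ± 31.7 in shzmat2-2 and 149 ± 16.6 in control (SD, n = 3 each, log2 fold change 0.46, adjusted p = 0.65 by limma). All 12 hepatocyte transcription factors were tested and none was called. The smallest adjusted p among them was that of NR5A2, with a log2 fold change of 0.50 (adjusted p = 0.58 by limma). None of the 12 hepatocyte markers was called either, and the summed level of those markers in the 3 groups overlapped.

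By Pearson's r of log2(FPKM + 1) over the 9 libraries, ZNF330 (r = 0.99) and RFLNB (r = 0.99) were among the 3 protein-coding genes, of 5945, most like the mean profile of FGA, FGB and FGG. Those most like PLG were S100A9 (r = 0.96), HTRA3 (r = 0.96) and SOX13 (r = 0.94). These are descriptions over 9 libraries that share a cell line and the same scaling. Like FGA, ZNF330 and RFLNB had their lowest value in control replicate 2, at 8.28 and 2.90 FPKM. The other libraries had 12.3 to 17.4 and 4.85 to 7.95 FPKM, and r without control replicate 2 was not computed. S100A9, a calcium-binding protein of myeloid cells, had 3.31, 1.37 and 3.76 FPKM in shzmat2-1, 0.976, 0.515 and 1.43 in shzmat2-2, and 14.7, 6.03 and 20.96 in control. As for PLG, all libraries of the arms lay below the control libraries, as they did for 0.685% of all genes tested. S100A9 was picked for its likeness to PLG over these same libraries, so this is not a separate observation.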

How the data were processed

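The deposited table holds FPKM per gene, made by the authors from libraries that were poly(A)-selected and strand-specific, per the labels' protocols. Per the submitters' processing notes, the tools were HISAT, featureCounts and DESeq2, with no versions; their settings, the strand used in counting and the genome build are not given in the sources used here. All 9 sample columns were used, and 0 were left out. Gene coordinates are those of the deposited table, promoters those of RefSeq on GRCh38.p14, and no value was taken from positions in both.

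The 10 genes and the lists of other genes were chosen with earlier results of these data known. Named genes are the 10, ZMAT2, called genes of the other lists, the 2 smallest adjusted p-values of a list, and the 3 genes of most like pattern with a mean of at least 5 FPKM; of these, the text draws on some. PI4KA, LPA, PLGLB1, PLGLB2, F9, SERPINA5, HAMP, IL6R and the opposite-strand genes lie outside that rule. So do the markers named for staying under 0.1 FPKM, which were picked by that level. SERPINA5, HAMP and IL6R were named after their values were seen. One gene of the fibrinolysis list, left out of its counts, and 1 gene of like pattern are not reported here.

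limma 3.58.1 in R 4.3.3 was fitted with a trend to log2(FPKM + 1) in all 9 libraries, with no term but the group, for the 11245 genes that reached 1 FPKM in 3 libraries or more. On this scale the fold changes of low genes are understated. Called means an adjusted p (Benjamini-Hochberg, two-sided) under 0.05. The contrasts were each arm and the mean of both arms against control, and shzmat2-2 against shzmat2-1. Chain ratios were compared by a two-sided exact permutation test. Deviations from the group means of same-numbered libraries of control and shzmat2-1 correlated at 0.61, 0.78 and 0.69, so the numbers were taken to pair these 2 groups, from the data and not the labels. The 3 correlations are not independent, since each group's deviations are from the mean of the same 3 libraries. Replicate 2 held the highest mitochondrial share of its group in both control (43.2%) and shzmat2-1 (16.4%). Its part in these correlations was not tested. A blocked fit of these 2 groups was added after seeing the data. The procedure was tested on simulated data. Depth was recovered from single-exon genes, where 99.9% to 100.0% of 744 to 864 values per library were whole within 0.1 fragments. The mitochondrial covariate was the log2 summed FPKM of the 13 mitochondrially encoded genes. Alternatives were a pseudocount of 0.1, no filter and one of 5 FPKM, TPM, 3 other scalings, a replicate block, no trend, only the groups compared, the covariate, and leaving out libraries. Python 3.11.15, numpy 2.4.6, pandas 2.3.3, scipy 1.17.1 and matplotlib 3.10.9 were used for the rest.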

Additional observations from a re-analysis of the deposited data

How the results depend on the processing

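Of the called genes with values in the text, F2RL1 had about 20 to 110 fragments per library and PLG 180 to 600, against 490 to 1390 for ZMAT2 and 860 to 2470 for SERPINE2. Over 22 alternatives PLG stayed lower wherever it was tested, and it was called in 9 of 19 fits of the mean of both arms (log2 fold change -1.31 to -0.86), 10 of 20 of shzmat2-2 and 7 of 21 of shzmat2-1.

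Counts of called genes are given with the share of all genes called in the same fit. Of the 10 genes in shzmat2-1, 1 was called with median-of-ratios scaling (0.717% of all genes), quantile normalization (0.631%), scaling to nuclear genes (0.489%) and without both second libraries, control replicate 2 and shzmat2-1 replicate 2 together (1.15%), and 2 with the mitochondrial covariate (3.73%). In shzmat2-2 it was 0 with no filter (0.27%), a filter of 5 FPKM (0.228%), TPM (0%) and only the groups compared (0.0092%), 2 with quantile normalization (1.76%) and nuclear scaling (1.47%), 4 with the covariate (9.84%) and 6 without both second libraries (30.6%). For the mean of both arms it was 0 with no filter (0.222%), a filter of 5 FPKM (0.38%) and TPM (0.0069%), 2 with quantile normalization (1.88%), 3 with the covariate (9.75%; PLG, F2 and SERPIND1) and 2 without both second libraries (4.09%). For shzmat2-2 against shzmat2-1 it was 6 without both second libraries (42.5%). In the fits of the mean, 0 of the other coagulation genes were called with a filter of 5 FPKM and with TPM. It was also 0 with the replicate block (0.516% of all genes). There were 3 with quantile normalization and nuclear scaling (1.65%) and 4 with median-of-ratios scaling (1.93%). With the covariate 11 were called, and 6 without both second libraries. Leaving out 1 library at a time gave 0 to 1 in shzmat2-1 (0% to 0.232% of all genes) and 0 to 2 in shzmat2-2 (0% to 2.35%). It gave 0 to 1 in the mean (0% to 1.28%), 0 to 0 between the arms (0%) and 0 to 3 of the other genes in the mean. The FGG to FGA difference was -0.28 to -0.16 and the FGB to FGA difference -0.29 to 0.11 in these fits, and the second was 0.0125 for shzmat2-2 alone. PLG was not tested with a filter of 5 FPKM because no library reached it, the mean of both arms was not fitted with only the groups compared, and single genes between the arms were not refitted. The causes were not tested.

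Same-numbered libraries of control and shzmat2-1 deviated together, and those of either group and shzmat2-2 did not in all pairs, with correlations of -0.76 to 0.61 and -0.63 to 0.63. The block within shzmat2-1 and control was chosen after seeing the data. It called 1 of the 10 genes (PLG, against 2.13% of all genes) and 3 of the other coagulation genes, and changed no other call of the 10. In all 9 libraries the replicate block gave 0, 1, 1 and 0 of the 10 genes in the 4 contrasts. The shares of all genes called were 0.116%, 0.462%, 0.516% and 0%. The ratio differences with this block were -0.15 (exact permutation p = 1.0) and -0.23 (exact permutation p = 0.25).

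Direction turned for 54 estimates of genes that were not called (lowest adjusted p = 0.15 by limma). In shzmat2-1 these were FGB with median-of-ratios scaling (-0.13), quantile normalization (-0.24), nuclear scaling (-0.21) and without both second libraries (-0.12), FGG with quantile normalization (-0.039) and nuclear scaling (-0.039), F2 with TPM (0.16), and SERPINC1 with median-of-ratios scaling (-0.14), quantile normalization (-0.22), nuclear scaling (-0.21), the covariate (-0.18) and without both (-0.14). In shzmat2-2 they were FGA (-0.29) and FGB (-0.014) without both second libraries, and F5 (-0.087) and F10 (0.043) with the covariate. In the mean of both arms they were FGA (-0.11) without both, FGB with median-of-ratios scaling (-0.060), quantile normalization (-0.032), nuclear scaling (-0.059) and without both (-0.065), FGG with TPM (0.087), and F10 with median-of-ratios scaling (-0.037), quantile normalization (-0.078), nuclear scaling (-0.037) and without both (-0.31). Leaving out 1 library turned some within these ranges. In shzmat2-1 they were F10 -0.19 to 0.62, F2 -0.35 to 0.13, FGA -0.0049 to 0.54, FGB -0.061 to 0.10, FGG -0.080 to 0.37 and SERPINC1 -0.32 to 0.21. In shzmat2-2 they were F10 -0.71 to 0.10, F5 -0.10 to 0.47, FGA -0.29 to 0.26 and FGB -0.014 to 0.15. In the mean they were F10 -0.45 to 0.36, F5 -0.45 to 0.12, FGA -0.15 to 0.40, FGB -0.038 to 0.13 and FGG -0.31 to 0.14. The median log2 fold change of all genes in shzmat2-1 was 0.32 with TPM, 0.03 with median-of-ratios scaling and -0.03 with nuclear scaling, against 0.16 as deposited.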
